A study of Mus musculus with 2 samples.

Results

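TCR γ-chain rearrangements were examined in the clonotype lists of 2 RNA libraries, 1 from CD8αα and 1 from CD8αβ T cells of the liver. A clonotype was kept when its first V hit and its first J hit both belonged to the TCR γ locus. This left 95 of 940 listed clonotypes with 432 of 6133 listed reads in the CD8αα library, and 11 of 1568 clonotypes with 18 of 3215 reads in the CD8αβ library. They used TRGV1, TRGV3, TRGV4, TRGV5 and TRGV7, which were 5 of the 254 V genes found over all receptor chains. No entry had a TCR γ segment at only V or only J, and no kept CDR3 held a stop codon or a frameshift. Both libraries came from the liver of dnTGFβRII (TG) mice on the C57BL/6 strain, labelled as 10 weeks old. The 2 cell types therefore share the transgene, a dominant-negative human TGF-β receptor II driven by the mouse CD4 promoter, and no library from mice without it was used here. The sources used here do not give how many mice were pooled for each library or which gate defined each sort. The lists hold receptor rearrangements alone, so the CD8α and CD8β labels could not be checked against expression. Immunoglobulin heavy, κ and λ chains, which mark B cells and plasma cells, made up 21.8% of the reads listed for the CD8αα library. They made up 13.7% of those listed for the CD8αβ library. With T cell receptor reads alone as the denominator, the γ-chain share was still larger in the CD8αα library, by 8.36 percentage points. Any other part of the immunoglobulin reads in the results was not tested.

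The TCR γ-chain pairs with the δ-chain to form the receptor of γδ T cells, which are frequent in the liver. Its genes can also be rearranged, and sometimes transcribed, in cells that go on to use an αβ receptor. In the mouse the locus is built as several clusters, each with its own J and constant gene and with 1 or more V genes beside them, and a V gene is usually joined to the J gene of its own cluster. The γ-chain has no D segment, so its CDR3 is made of the end of a V gene, the start of a J gene and the bases trimmed or added at the junction. On GRCm38 chromosome 13, TRGV7 (19178024 to 19178492), TRGV4 (19184974 to 19185506) and TRGV5 (19192278 to 19192725) lie upstream of TRGJ1 (19210343 to 19210402) and TCRG-C1 (19214103 to 19217024). TRGV3 (19242845 to 19243301) lies upstream of TRGJ3 (19257117 to 19257176) and TCRG-C3 (19260884 to 19263528). TRGV1 (19339989 to 19340454) lies upstream of TRGJ4 (19342152 to 19342212) and TCRG-C4 (19344558 to 19352756). All of these are on the plus strand. TRGV2 (19336573 to 19337167), TRGJ2 (19311245 to 19311304) and TCRG-C2 (19304649 to 19307551) are on the minus strand. The annotation gives each V gene as 2 exons, and the positions are those of the whole gene. Constant genes are named as the lists write them.

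The germline V ends within the CDR3, from the conserved cysteine codon to the end of the coding V segment, are shown first because the naming of the 2 main V genes turns on them. The 3 genes share their first 14 bases, and the last 3 are in capitals.
TRGV1 germline end: tgtgcagtctggatAAA
TRGV3 germline end: tgtgcagtctggatAAA
TRGV2 germline end: tgtgcagtctggatGAG
TRGV1 and TRGV3 therefore cannot be told apart within the CDR3, and they were also identical over the 87 bases before it. TRGV2 differed from both by A15G and A17G, with positions counted from the first base of the cysteine codon and the TRGV1 base first. Over the last 250 bases of the V segment, TRGV1 and TRGV3 were 94.5% identical, TRGV1 and TRGV2 93.3%, and TRGV2 and TRGV3 94.0%.

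The largest TCR γ-chain clonotypes are shown next, with capitals for bases that match neither a germline V end (the longest match among TRGV1, TRGV2 and TRGV3) nor the germline J start. The first 6 are those of the CD8αα library, with a tie for the last of them, and the last 4 are those of the CD8αβ library that held more than 1 read.
CD8αα TRGV1-TRGJ2, 34 reads: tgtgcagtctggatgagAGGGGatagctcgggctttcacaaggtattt
CD8αα TRGV1-TRGJ2, 32 reads: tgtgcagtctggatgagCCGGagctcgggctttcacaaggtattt
CD8αα TRGV1-TRGJ2, 27 reads: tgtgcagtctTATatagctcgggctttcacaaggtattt
CD8αα TRGV1-TRGJ2, 20 reads: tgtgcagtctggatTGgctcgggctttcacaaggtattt
CD8αα TRGV1-TRGJ2, 18 reads: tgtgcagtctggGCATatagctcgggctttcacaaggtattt
CD8αα TRGV3-TRGJ2, 18 reads: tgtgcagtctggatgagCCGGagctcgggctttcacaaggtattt
CD8αβ TRGV1-TRGJ2, 4 reads: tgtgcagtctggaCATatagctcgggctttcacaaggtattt
CD8αβ TRGV1-TRGJ2, 3 reads: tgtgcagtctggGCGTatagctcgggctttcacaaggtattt
CD8αβ TRGV1-TRGJ2, 2 reads: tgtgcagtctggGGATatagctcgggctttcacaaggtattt
CD8αβ TRGV3-TRGJ2, 2 reads: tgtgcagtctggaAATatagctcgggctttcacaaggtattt
All of these used TRGJ2. The second and the sixth sequences are the same CDR3, listed once under TRGV1 and once under TRGV3, and the first 2 sequences carry all 17 bases of the TRGV2 end.

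To ask which V genes made up the larger amount of γ-chain RNA in the CD8αα library, each V gene was first taken as a share of all listed reads. TRGV1 and TRGV3, the most used γ V genes in both libraries, were more than 10 times as frequent in the CD8αα library, and TRGV4 was found only there. TRGV1 had 254 reads in the CD8αα library, a share of 4.14% (95% Wilson interval 3.67 to 4.67), and 12 reads in the CD8αβ library, a share of 0.373% (0.214 to 0.651). The shares differed by 11.1-fold (two-sided Fisher's exact test, p adjusted over all V genes = 5.66e-31). TRGV3 had 149 reads (2.43%, 2.07 to 2.85) against 6 (0.187%, 0.0856 to 0.407), a 13.0-fold difference (Fisher's exact test, adjusted p = 6.72e-19). TRGV4 had 19 reads (0.310%, 0.198 to 0.483) against none (Fisher's exact test, adjusted p = 0.00254). The ratio is 3.32-fold when CD8αβ T cells are set at the floor of 3 reads, or 0.0933% of the library. It is not a lower bound, since the Wilson interval of the CD8αβ library reaches 0.119%. TRGV7 had 9 reads (0.147%, 0.0772 to 0.279) against none, and it did not pass after adjustment (Fisher's exact test, p = 0.0325, adjusted p = 0.0938). TRGV5 had 1 read in the CD8αα library and none in the CD8αβ library, both under the floor.

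Thus 3 of 5 TRGV genes were called higher in the CD8αα library by reads, where 12.2% of all V genes were. Of all V genes with at least 10 reads over both libraries, 38.7% were at least 2-fold higher in the CD8αα library. TRGV1, TRGV3 and TRGV4 were among them, but TRGV3 and TRGV4 reached 10 reads only through the CD8αα library, so nothing is read from this count. With each clonotype counted once, 3 of 5 TRGV genes were again called, against 1.18% of all V genes. The 3 V genes called higher in that count were TRGV1, TRGV3 and TRGV4, with no V gene of another chain among them. TRGV1 was then found in 48 of 940 clonotypes and 6 of 1568, TRGV3 in 36 and 5, and TRGV4 in 8 and 0. However, 13 CDR3s of the CD8αα library, with 65.5% of its γ-chain reads, were listed under both TRGV1 and TRGV3, as was 1 of the CD8αβ library. Such CDR3s count under each name, so the calls of TRGV1 and TRGV3 are not separate results. In all, TCR γ-chain entries were 10.1% of the clonotypes of the CD8αα library (95% Wilson interval 8.34 to 12.2) and 0.702% (0.392 to 1.25) of those of the CD8αβ library. Set against the β-chain of the same library, there were 14.4 γ-chain reads for every 100 β-chain reads in the CD8αα library and 0.973 in the CD8αβ library. With 1 library for each cell type, these tests compare 2 libraries and not the conditions. No molecular identifiers are described, so reads cannot be taken as separate molecules. Intervals, floors and tests treat reads as independent, and at most cover the counting error of reads, not that of molecules or cells. In bulk RNA, more cells with a rearrangement and more of its RNA for each cell cannot be told apart.

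**Figure D1:**
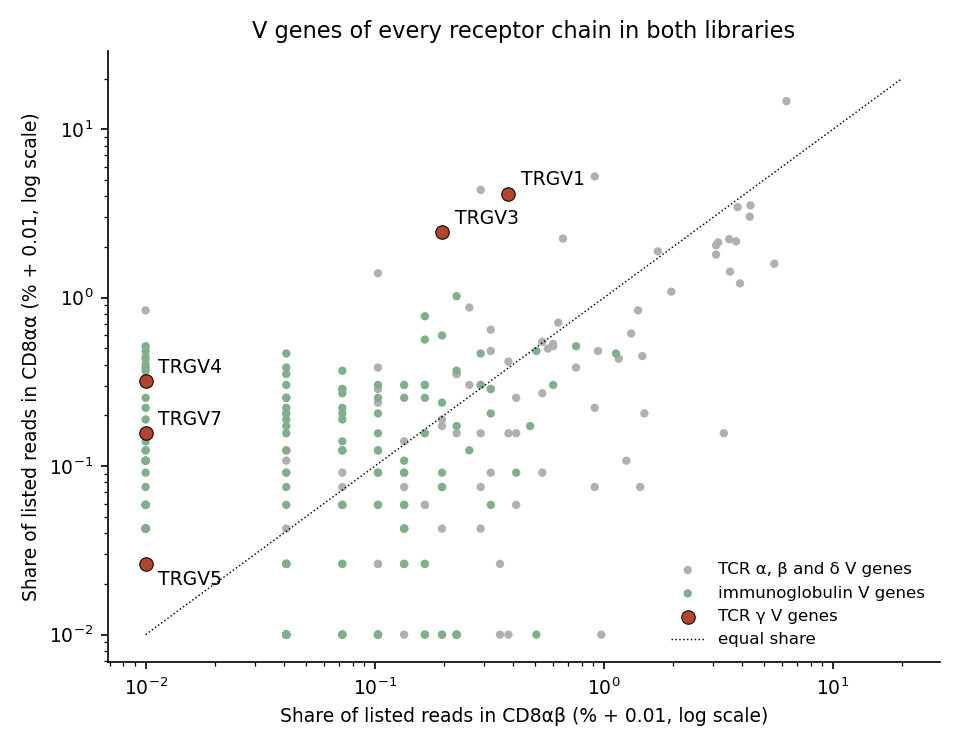
Each point is 1 of the 254 V genes, with its share of listed reads in the CD8αβ library on the x axis and in the CD8αα library on the y axis, both in % after adding 0.01 and on log scales; the dotted line marks equal shares. TRGV1 (4.14% against 0.373%) and TRGV3 (2.43% against 0.187%) lie well above the line, and TRGV4, TRGV7 and TRGV5 lie at the left edge, where CD8αβ T cells had no read.

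The composition of the γ-chain was compared next, with each gene as a share of its library's γ-chain reads. TRGV1 and TRGV3 together held 93.3% of these reads in the CD8αα library and all 18 in the CD8αβ library. TRGV1 held 58.8% of the CD8αα γ-chain reads (95% Wilson interval 54.1 to 63.3) and 66.7% of the CD8αβ ones (43.7 to 83.7), with p = 0.628 by Fisher's exact test. TRGV3 held 34.5% (30.2 to 39.1) of these reads in CD8αα and 33.3% (16.3 to 56.3) in CD8αβ, with p = 1 by Fisher's exact test. TRGV4 held 4.40% (2.83 to 6.77), TRGV7 2.08% and TRGV5 0.231% in the CD8αα library. A gene absent from the 18 reads of the CD8αβ library could still hold up to 16.7% of them at a floor of 3 reads, so none of these 3 was detectably different at this depth. By reads, 0 of 5 TRGV genes were called in either direction, and 0 had an unadjusted p under 0.05, while 23.2% of V genes over all chains were called within their own chain. By clonotypes the numbers were 0 of 5 TRGV genes, again with none under 0.05 before adjustment, and 0% of all V genes. The intervals of the CD8αβ library were wide, so these tests do not show that the 2 compositions were alike.

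Among J genes, TRGJ2 dominated both libraries. It held 387 reads (89.6%, 95% Wilson interval 86.3 to 92.1) in the CD8αα library and 17 reads (94.4%, 74.2 to 99.0) in the CD8αβ library. TRGJ1 had 29 reads (6.71%) against none, TRGJ3 had 8 (1.85%) against none, and TRGJ4 had 8 (1.85%) against 1 (5.56%). None of the 4 was called by reads or by clonotypes, and none had an unadjusted Fisher's exact p under 0.05, with 0.310 for TRGJ4 as the smallest by reads. Over all chains, 58.3% of J genes were called within their chain by reads and 1.39% by clonotypes.

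The V-J pairs followed the clusters, except around TRGJ2. TRGV4, TRGV5 and TRGV7 were joined only to TRGJ1, the J gene of their own cluster, in 11 clonotypes with 29 reads. TRGV3 was joined to its cluster's TRGJ3 in 3 clonotypes with 8 reads of the CD8αα library. TRGV1 was joined to its neighbour TRGJ4 in 6 clonotypes with 8 reads of the CD8αα library and in 1 clonotype with 1 read of the CD8αβ library. All the other TRGV1 and TRGV3 clonotypes were listed with TRGJ2, which lies in another cluster and on the opposite strand. In the CD8αα library these were 42 TRGV1 clonotypes with 246 reads (56.9% of γ-chain reads) and 33 TRGV3 clonotypes with 141 reads (32.6%). In the CD8αβ library they were 5 with 11 reads (61.1%) and 5 with 6 reads (33.3%). TRGV2, the V gene on the strand of TRGJ2 and 25268 bases from it, was among the V hits of no listed clonotype of any chain in either library.

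**Figure D2:**
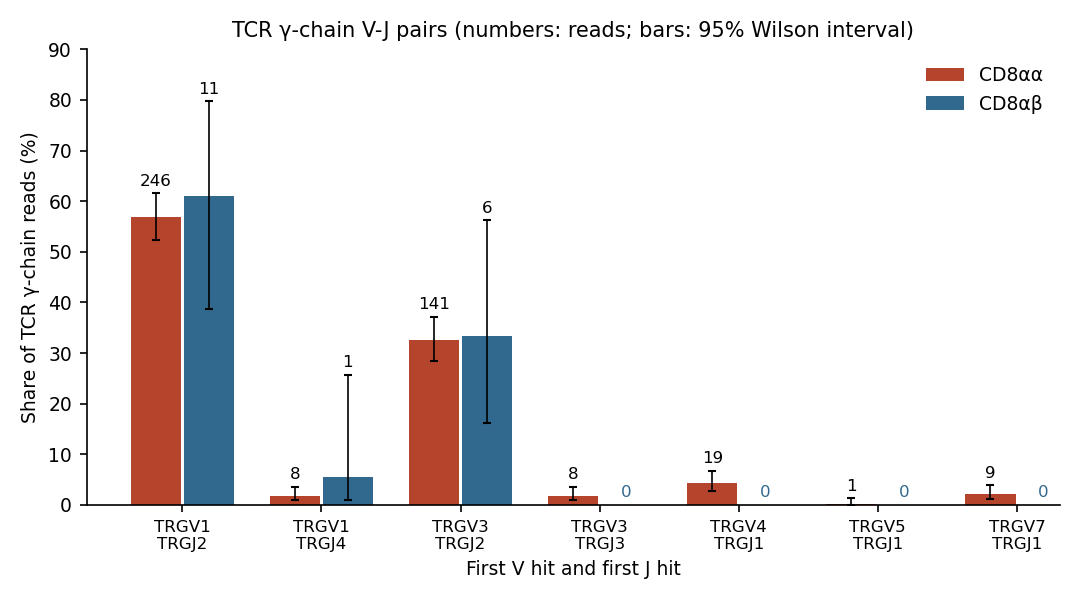
Bars give each V-J pair's share of TCR γ-chain reads in % for CD8αα (432 reads) and CD8αβ (18 reads) T cells. The 95% Wilson intervals cover counting error with reads treated as independent, and the number of reads stands above each bar. TRGV1-TRGJ2 (56.9% and 61.1%) and TRGV3-TRGJ2 (32.6% and 33.3%) were the 2 largest pairs in both libraries, and the pairs within the other clusters each held less than 6%.

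Where a constant gene was listed, it was that of the J gene or tied with it. Of the 74 γ-chain clonotypes of the CD8αα library with a constant hit, all had the constant gene of their J gene's cluster as the best hit or tied with it. This was 9 of 9 for TRGJ1, 58 of 58 for TRGJ2, 2 of 2 for TRGJ3 and 5 of 5 for TRGJ4. The same held for 4 of 4 TRGJ2 clonotypes and 1 of 1 TRGJ4 clonotype of the CD8αβ library. For TRGJ2, TCRG-C2 was the sole best hit in 42 clonotypes with 306 reads of the CD8αα library, and in 16 with 52 reads it was tied with TCRG-C1, which the list then writes first. No constant gene was listed for 21 clonotypes with 40 reads of the CD8αα library and for 6 with 8 reads of the CD8αβ library. TCRG-C2 was the sole best hit in 3 of the 10 TRGJ2 clonotypes of the CD8αβ library, with 1 tied and 6 without a constant hit. For the tied clonotypes and those without a hit, the constant gene did not tell the cluster.

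The V names TRGV1 and TRGV3 were less firm than the J names. In the CD8αα library, 17 clonotypes named TRGV1 alone and 33 named TRGV3 alone, while 34 listed both. Of these 34, TRGV1 was first in 31, and in 15 of those its score was equal to that of TRGV3. In the CD8αβ library all 6 TRGV1 clonotypes also listed TRGV3, with equal scores in 3, and all 5 TRGV3 clonotypes listed TRGV3 alone. The split between TRGV1 and TRGV3 therefore rested in part on the order in which tied hits were written. When tied hits were shared equally, TRGV1 turned from lower to higher in the CD8αα library, by 6.02 percentage points of γ-chain reads (Fisher's exact test, adjusted p = 0.897).

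Several CDR3s were listed under both names. In the CD8αα library, 13 of the 62 distinct TRGJ2 CDR3s (21.0%) appeared once as TRGV1 and once as TRGV3, with an identical nucleotide sequence. These 26 entries held 283 reads, or 65.5% of the library's γ-chain reads. The TRGV1 entry had more reads in 12 of 13 and an equal number in 1, with 192 reads in all against 91. The V alignment score was higher in the TRGV3 entry for 12 of 13, with medians of 751 and 422, and the constant alignment score was lower in it for 10 of the 11 with both scores, with medians of 110 and 487. For the same CDR3, the TRGV3 entries thus scored higher over the V gene and lower over the constant gene than the TRGV1 entries. In the CD8αβ library 1 CDR3 was listed under both names, with 3 reads as TRGV1 and 1 as TRGV3.

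Entries of 1 CDR3 under several V genes were also counted in the other chains. In the CD8αα library, 15.9% of distinct γ-chain CDR3s (13 of 82, 95% Wilson interval 9.51 to 25.3) had entries under 2 or more V genes. The share was 4.72% (2.58 to 8.46) for the α-chain, 1.51% (0.645 to 3.48) for the β-chain and 0 of 6 CDR3s for the δ-chain. Among the immunoglobulin chains it was 7.26% (3.87 to 13.2) for the heavy chain, 1.47% (0.404 to 5.20) for the κ chain and 0 of 9 CDR3s for the λ chain. The γ-chain interval does not overlap those of the α-chain, the β-chain and the κ chain. It overlaps those of the heavy chain, the δ-chain (0 to 39.0) and the λ chain (0 to 29.9). In the CD8αβ library the share was 1 of 10 for the γ-chain (1.79 to 40.4). That interval overlaps those of the κ chain (0.203 to 6.23) and the heavy chain (0 to 4.32). It lies above those of the α-chain (0.0387 to 1.23) and the β-chain (0 to 0.418). These intervals treat CDR3s as independent, and no test of the difference was made.

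**Figure D3:**
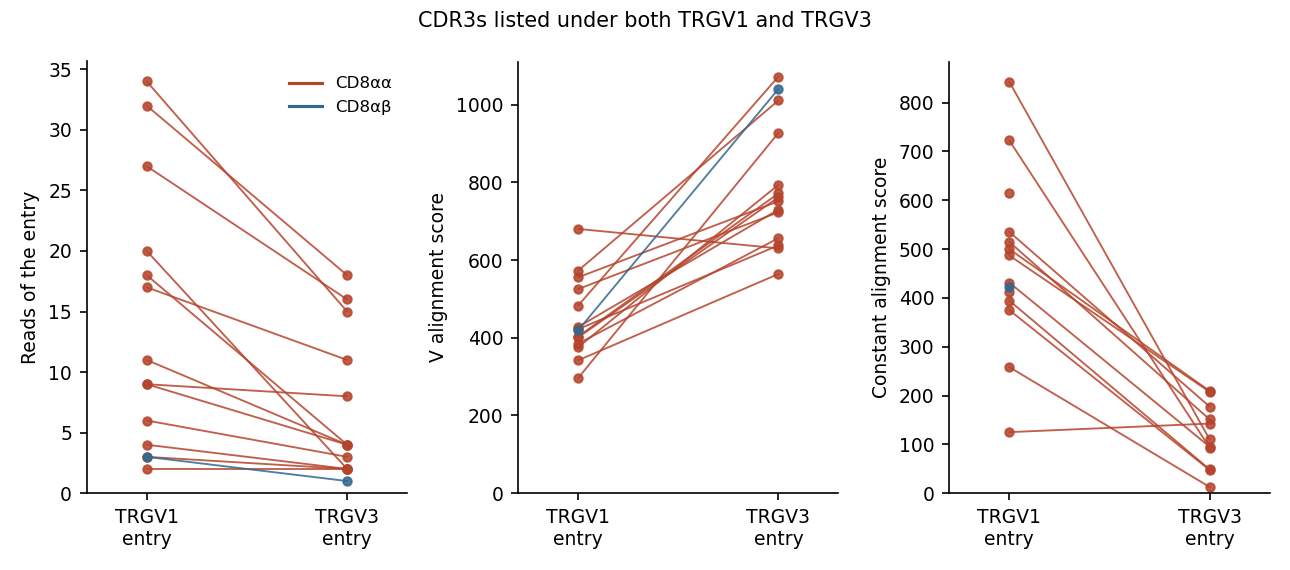
Each line joins the TRGV1 entry and the TRGV3 entry of 1 CDR3 with TRGJ2, for the 13 such CDR3s of CD8αα and the 1 of the CD8αβ library; the y axes give reads, the V alignment score and the constant alignment score (scores without unit). Reads were higher in the TRGV1 entry in 12 of 13 CD8αα pairs, V scores were higher in the TRGV3 entry in 12 of 13, and constant scores were lower in it in 10 of the 11 with both; an entry without a constant hit has no point.

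The CDR3s were then read against the germline ends printed above. Of the 62 distinct TRGJ2 CDR3s of the CD8αα library, 32 kept the 14 bases that TRGV1, TRGV2 and TRGV3 share. The next bases matched the TRGV2 end further in 21 of them, the TRGV1 and TRGV3 end further in 3 and neither in 8. A match of 2 or 3 bases past the shared 14 was found in 14 for TRGV2 and in 2 for TRGV1 and TRGV3. All 17 bases of the TRGV2 end were present in 9 CDR3s with 113 reads, which was 29.2% of the TRGJ2 reads, and all 17 of the TRGV1 and TRGV3 end in none. Most of the 113 reads came from 2 CDR3s, the CCGG junction with 50 and the AGGGG junction with 49 over both V names. Those 9 CDR3s were listed in 12 entries, 8 as TRGV1 and 4 as TRGV3. By the listed name, 17 of the 23 TRGV1 entries that kept the 14 bases continued as TRGV2 and 1 as TRGV1, and of 15 such TRGV3 entries 7 continued as TRGV2 and 3 as TRGV3.

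Clonotypes joined to the other J genes were few. With TRGJ4, 2 of 7 distinct CDR3s over both libraries kept the 14 bases, and both matched the TRGV1 and TRGV3 end by 1 more base. In the CD8αα CDR3 that base also matches the TRGJ4 start, so it cannot be assigned to the V gene. With TRGJ3, 1 of 3 did so, and it continued with neither. In the CD8αβ library, 1 of 9 distinct TRGJ2 CDR3s kept the 14 bases, and it carried all 17 of the TRGV2 end. A base added at the junction can match a germline base by chance, and which V gene gave rise to the TRGJ2 rearrangements was not tested. Because the lists hold no V sequence outside the CDR3, the V names are given here as written.

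**Figure D4:**
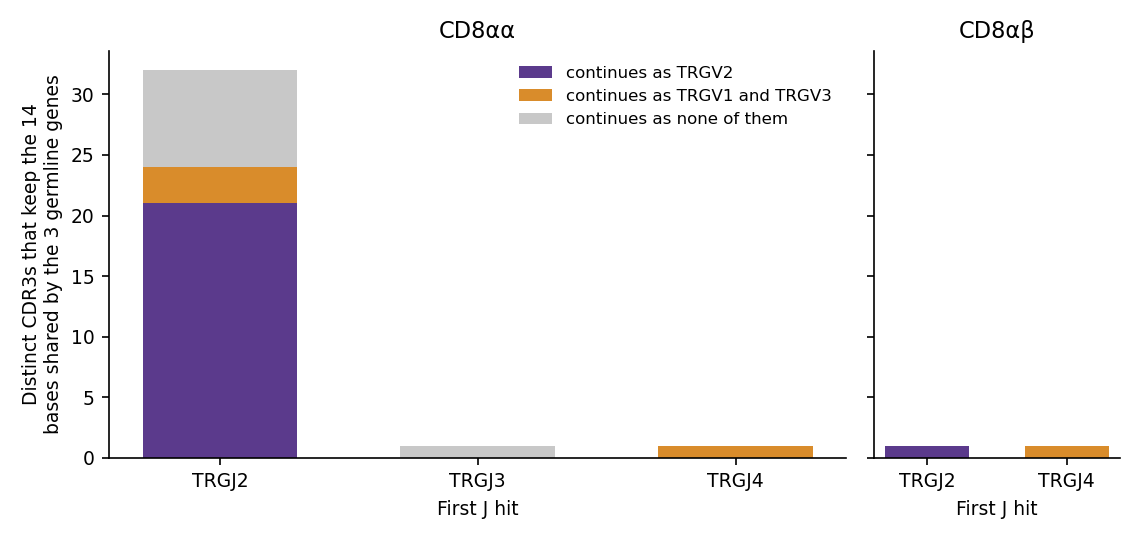
Stacked bars count the distinct CDR3s that keep the 14 bases shared by the germline ends of TRGV1, TRGV2 and TRGV3, by first J hit, for CD8αα (left) and CD8αβ (right) T cells; colours show which germline end the next bases match. With TRGJ2 in the CD8αα library, 21 of 32 continued as TRGV2 and 3 as TRGV1 and TRGV3. With TRGJ4 the 1 CDR3 of each library matched the TRGV1 and TRGV3 end by 1 more base, which in the CD8αα library also matches TRGJ4.

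The TRGJ1 clonotypes, found only in the CD8αα library, had their own germline V ends. The most frequent of TRGV4, both of TRGV7 and the only one of TRGV5 are shown, with capitals again for bases that match neither germline end.
TRGV4-TRGJ1, 5 reads: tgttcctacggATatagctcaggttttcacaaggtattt
TRGV7-TRGJ1, 5 reads: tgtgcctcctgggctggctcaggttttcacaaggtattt
TRGV7-TRGJ1, 4 reads: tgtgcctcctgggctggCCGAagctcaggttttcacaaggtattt
TRGV5-TRGJ1, 1 read: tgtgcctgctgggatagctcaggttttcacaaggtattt
The 8 TRGV4 CDR3s had 1 to 5 reads each and 2 to 10 unassigned bases, and all 8 differed. The first TRGV7 CDR3 and the TRGV5 CDR3 had no unassigned base. TRGV7 is the γ V gene known from intestinal intraepithelial lymphocytes, TRGV5 is known from γδ T cells of the epidermis, and TRGV4 from those of lymphoid tissue and lung.

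Junctions were short in both libraries. Over the 82 distinct γ-chain CDR3s of the CD8αα library, the number of unassigned bases had a median of 3 and a maximum of 10, and 7 CDR3s had none. Over the 10 of the CD8αβ library the median was 4 and the maximum 6, and none was without an unassigned base. The J start was intact in 52 of 82 and 7 of 10. Palindromic J bases, which are copied from the opened J end, were marked by MiXCR in 43 of 82 and in 7 of 10. They are the T, AT or TAT just before the intact J start in several of the sequences printed above.

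Some γ-chain CDR3s were found in both libraries. By nucleotide CDR3, V hit and J hit there were 4, all with TRGJ2, which was 4.21% of the 95 entries of the CD8αα library (95% Wilson interval 1.65 to 10.3) and 36.4% of the 11 of the CD8αβ library (15.2 to 64.6). They held 19 reads (4.40%) and 8 reads (44.4%) of the γ-chain. Without the V hit there were also 4, which held 46 reads (10.6%) in the CD8αα library and 9 reads (50%) in the CD8αβ library.
In both, 43 and 1 reads: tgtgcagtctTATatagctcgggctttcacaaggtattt
In both, 1 and 4 reads: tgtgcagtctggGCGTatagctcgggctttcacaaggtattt
In both, 1 and 2 reads: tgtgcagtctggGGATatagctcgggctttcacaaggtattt
In both, 1 and 2 reads: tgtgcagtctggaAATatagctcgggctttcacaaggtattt
The reads are those of CD8αα and then CD8αβ T cells, over both V names. Each of the 4 rested on a single read in 1 of the libraries, so with clonotypes of at least 2 reads no γ-chain CDR3 was shared. They had 3 or 4 unassigned bases, against a median of 3 (range 0 to 10) in the 78 CDR3s of the CD8αα library that were not shared.

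Sharing was also counted in the other chains. Of the CD8αβ clonotypes, 0.328% of the β-chain (3 of 915, 0.112 to 0.960) and none of the 457 of the α-chain were also listed for the CD8αα library. None of the 5 δ-chain clonotypes was shared. Among the immunoglobulin chains, which B cells make, the share was 2.35% for the heavy chain (2 of 85, 0.648 to 8.18), 31.8% for the κ chain (28 of 88, 23.0 to 42.1) and 57.1% for the λ chain (4 of 7, 25.0 to 84.2). As a share of the CD8αβ list, the γ-chain interval lies above those of the α-chain, the β-chain and the heavy chain. It overlaps those of the δ, κ and λ chains. The order depended on the list: as a share of the CD8αα list, the γ-chain interval (1.65 to 10.3) overlaps that of the α-chain (0 to 1.70). There it also overlaps those of the β-chain (0.303 to 2.58) and the heavy chain (0.413 to 5.32), and lies below those of the κ chain (14.4 to 27.8) and the λ chain (18.9 to 73.3). No test of these differences was made.

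CDR3 length was close to 14 amino acids in both libraries. The mean over clonotypes was 13.9 ± 1.10 amino acids (SD, n = 95 clonotypes of 1 library, range 11 to 16) in the CD8αα library and 14 ± 0.447 (SD, n = 11, range 13 to 15) in the CD8αβ library. The difference of -0.137 amino acids (CD8αα minus CD8αβ) was smaller than the spread among clonotypes, and it changed sign when clonotypes were weighted by reads, with means of 14.1 and 14. The length of 14 was the most frequent in both, in 45.3% (95% Wilson interval 35.6 to 55.3) of CD8αα and 81.8% (52.3 to 94.9) of CD8αβ clonotypes. Lengths of 11, 12 and 16 amino acids were found only in the CD8αα library, in 16 of 95 clonotypes, and each could hold up to 25.9% of the 11 clonotypes of the CD8αβ library by its Wilson interval. By V gene in the CD8αα library, the mean was 13.8 ± 1.02 for TRGV1 (n = 48), 13.9 ± 1.22 for TRGV3 (n = 36) and 14.3 ± 1.04 for TRGV4 (n = 8), which lie within 1 SD of each other. The shortest mean of any pair with more than 2 clonotypes was that of TRGV1-TRGJ4, 13.2 ± 0.753 (n = 6).

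**Figure D5:**
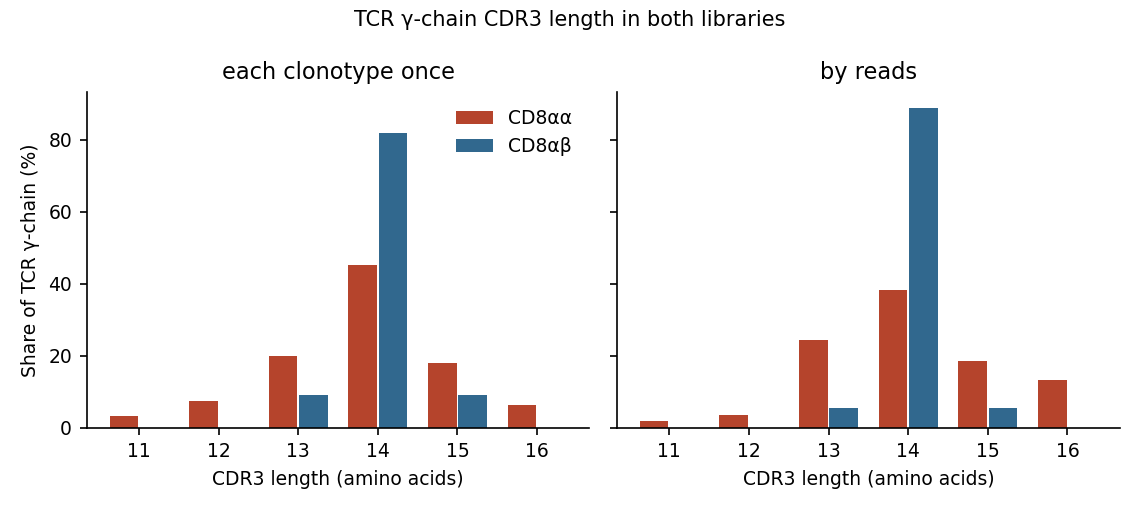
Bars give the share of TCR γ-chain clonotypes (left, 95 and 11) and of γ-chain reads (right, 432 and 18) in % at each CDR3 length in amino acids, for CD8αα and CD8αβ T cells. The length of 14 was the most frequent in both, in 45.3% and 81.8% of clonotypes and in 38.4% and 88.9% of reads.

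In the CD8αα library the largest γ-chain entry held 7.87% of the γ-chain reads (95% Wilson interval 5.69 to 10.8), and the 5 largest held 30.3% (26.2 to 34.8). With entries of the same CDR3 and J joined, the largest was the CCGG junction printed above, listed as TRGV1 and TRGV3, with 50 reads or 11.6% (8.89 to 14.9). The 5 largest joined CDR3s then held 44.4% (39.8 to 49.2), and 7 CDR3s together reached 50% of the reads. In the CD8αβ library the largest held 4 of 18 reads, or 22.2% (9.0 to 45.2), and the 5 largest joined CDR3s held 72.2% (49.1 to 87.5). The share of the largest was 36.4% with clonotypes of at least 2 reads and 44.4% without the CDR3s found in both libraries. Entries of 1 read were 33 of 95 (34.7%) in the CD8αα library and 7 of 11 (63.6%) in the CD8αβ library. In the CD8αβ library, 6 of 11 γ-chain entries had a minimum CDR3 base quality under 30, against 17 of 95 in the CD8αα library.

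The δ-chain, the partner of the γ-chain in γδ T cells, was rare in both libraries. It had 18 reads in 6 clonotypes of the CD8αα library (0.293%, 95% Wilson interval 0.186 to 0.463) and 7 reads in 5 clonotypes of the CD8αβ library (0.218%, 0.106 to 0.449), and all used TRDJ1. The shares did not pass the test (Fisher's exact test, p = 0.674). There were 4.17 δ-chain reads for every 100 γ-chain reads in the CD8αα library and 38.9 in the CD8αβ library. TRDV2-2 had 11 reads in the CD8αα library, all with TRDJ1, and 6 in the CD8αβ library, of which 1 was with TRDJ1 and 5 with α-chain J genes. TRDV1 had no read and 3 reads, the latter with α-chain J genes and so not counted as δ-chain. TRDV5 had none and 1, and TRDV4 and TRDJ2 none in either. The other TRDJ1 reads had V names of the TRAV series. In the CD8αα library these were TRAV15N-1 (3 reads), TRAV13D-1 (2) and TRAV15D-2-DV6D-2 (2). In the CD8αβ library they were TRAV13-4-DV7 (2), TRAV13D-1 (2) and TRAV15N-1 (1). All of these counts but those of TRDV2-2 and of TRDJ1 as a whole are at or near the floor of 3 reads.

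The γ-chain as a whole (log2 ratio of shares 3.65, over 2 libraries) was set beside V genes of other chains. These had a read in each library and at least 10 over both. The 3 nearest in ratio were all immunoglobulin genes. IGHV10-1 had 23 reads in CD8αα and 1 in the CD8αβ library (log2 ratio 3.59), IGKV3-4 had 21 and 1 (3.46) and IGKV15-103 had 28 and 1 (3.88). Each ratio rests on a single read of the CD8αβ library, so all 3 reached 10 reads only through the CD8αα library. Genes with no read in 1 of the libraries were left out, and single V genes were set against a whole chain. Nothing is therefore read from which genes were nearest. In the CD8αα library 1 clonotype held 18 of the 23, 19 of the 21 and 12 of the 28 reads, whereas the largest TRGV1 clonotype held 34 of 254 and the largest TRGV3 clonotype 18 of 149. A large ratio was not limited to immunoglobulin genes. TRAV4D-3 had 85 reads (1.39%) in CD8αα and 3 (0.0933%) in CD8αβ, and TRAV13D-2 had 267 (4.35%) and 9 (0.280%). Both reached 10 reads only through the CD8αα library. The largest α-chain clonotype of that library held 250 reads. Among α V genes only TRAV13D-2 had enough reads to hold it, so its ratio rested mostly on 1 clonotype. How the TRAV4D-3 reads were spread over clonotypes was not examined. The α-chain as a whole had a smaller share in the CD8αα library (22.0% against 28.0%).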

How the data were processed

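Bulk RNA-seq was available for the 2 hepatic CD8 subsets of TG mice, with 1 library for each. The authors assembled receptor clonotypes with MiXCR, which aligns reads to V, J and constant genes, and deposited read counts per clonotype that were not normalized. The deposited fraction is that count divided by all listed reads. The authors also deposited the minimum base quality score of each CDR3 and the alignment score of each V, J and constant hit. The read filters and MiXCR reference library are not given in the sources used here. The submitters' processing notes name mm10, so germline ends and coordinates were taken from the GENCODE M21 annotation of GRCm38, with gene names matched by number.

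From the deposited counts, a clonotype was an entry of the list, a nucleotide CDR3 with its first V and J hits, and depth was 6133 and 3215 listed reads. Shares were tested with Fisher's exact test (two-sided), adjusted by the Benjamini-Hochberg method over every V or J gene of every chain at a threshold of 0.05. Intervals are 95% Wilson intervals, and a count of 0 allows up to 3 reads. V and J bases were assigned as the longest match from each end of the CDR3. Named were every TCR γ V, J and constant gene and V-J pair with a read, the 5 largest clonotypes of each library with ties, CDR3s found in both libraries, and the 3 V genes nearest in ratio. The printed TRGJ1 clonotypes, TRGV2 and the comparison of CDR3s with its germline end were chosen after their values had been seen, and the members and lists were chosen with earlier results of these data known. The software was scipy 1.17.1, pandas 2.3.3, Biopython 1.88, numpy 2.4.6 and matplotlib 3.10.9 in Python 3.11.15. The tests were tried on simulated counts in which reads were drawn independently. Reads pile up in clonotypes here, which those counts did not copy, so the trial gives no rate of false calls for these lists. Alternatives were clonotypes counted once, a minimum of 2 reads, leaving out the largest or the shared clonotypes, merging CDR3s that differ by 1 nucleotide from one with at least 10 times the reads, splitting tied hits, T cell receptor reads as the denominator and requiring a constant hit. The single-cell data were not analysed here.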

Additional observations from a re-analysis of the deposited data

How the results depend on the processing

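The larger γ-chain share of CD8αα T cells kept its direction and stayed past the threshold under all 8 alternatives (1 of them, CDR3s with the same J counted once, chosen after the data were seen), with a difference of 6.06 to 9.40 percentage points, and 3 TRGV genes were called higher in CD8αα T cells under each of 7. Merging 1-nucleotide neighbours, 1 of the 8, moves reads only within a chain, so it could not change the γ-chain share and was no check on it. Leaving out the shared CDR3s took 9 of the 18 CD8αβ γ-chain reads and 46 of the 432 CD8αα ones. Requiring a constant hit took 8 and 40, and leaving out the largest clonotypes took 4 and 34. Each of these removed a larger part of the γ-chain from the CD8αβ library, so it could hardly weaken the difference. Within the γ-chain, 0 V genes and 0 J genes were called under any alternative, 1 of them chosen after the data were seen (TRGV1 and TRGV3 as 1 gene). Splitting tied J hits and merging neighbours left the TRGJ1 and TRGJ2 differences unchanged, so these alternatives add no weight for the J genes. The differences in TRGV shares, none past the threshold, varied widely and changed sign. TRGV1 went from -7.87 to 6.02 percentage points (CD8αα minus CD8αβ) with tied hits split. TRGV3 went from 1.16 to -12.7 with tied hits split, to -7.56 with clonotypes counted once and to -5.42 without the largest clonotypes. They grew to -22.7 for TRGV1 and 16.2 for TRGV3 with clonotypes of at least 2 reads, and to -27.2 and 21.1 where a TCR γ constant hit (written TCRG-C in the lists) was required. TRGJ2 went from -4.86 to 1.33 with that requirement. The difference in length went from -0.137 to 0.0856 amino acids when weighted by reads. With clonotypes of at least 2 reads, the share of CD8αβ γ-chain clonotypes found in both libraries went from 36.4% to 0%, and it was 18.2% with 1-nucleotide neighbours merged. Joining entries of the same CDR3 and J, chosen after the data were seen, raised the largest CD8αα clonotype from 7.87% to 11.6%. The largest CD8αβ clonotype went from 22.2% to 36.4% with clonotypes of at least 2 reads and to 44.4% without the CDR3s found in both libraries. The causes were not tested. No paired analysis was possible because each cell type had 1 library, and the 18 γ-chain reads of CD8αβ T cells limit every comparison within the chain.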

Other observations

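Over both libraries the γ-chain lists held 76 distinct amino acid CDR3s, and 11 of them were encoded by 2 or more nucleotide sequences, with at most 3 for any. Within CD8αα T cells this was 10 of 71, and within CD8αβ T cells 0 of 10. By amino acid sequence 5 γ-chain CDR3s were found in both libraries, against 4 by nucleotide sequence. No explanation was tested.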
